A study of Mus musculus with 313 samples.

Results

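The Groucho/TLE co-repressor family was followed through 5 of the 100 assays of a single-cell quantitative RT-PCR panel: Tle1, Tle2, Tle3, Tle4 and Aes. The members were taken by name, and all 5 were on the panel. They were measured in 312 single precursor cells of embryonic day 15 (E15) mouse fetal liver, from livers that were pooled before sorting. Each cell was lineage negative and positive for IL7Rα and the integrin α4β7, a surface phenotype shared by the 3 groups. The α4β7+ lymphoid precursors (aLP) were negative for PLZF and CXCR5, the innate lymphoid cell precursors (ILCP) were positive for PLZF, and the lymphoid tissue inducer precursors (LTiP) were negative for PLZF and positive for CXCR5. Cells of 1 group and 1 sort were treated as a pool: aLP held 54 cells in sort 2 and 92 in sort 3, ILCP held 62 and 90, and LTiP held 14 cells, all in sort 3. The aLP and ILCP groups thus had 2 pools each, and LTiP had no replicate. Livers of several embryos went into each sort, so the spread between pools is one between sorting experiments and may be technical.

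Groucho/TLE proteins do not bind DNA themselves. They are recruited by sequence-specific factors of the TCF/LEF, RUNX and HES families, assemble through an amino-terminal glutamine-rich domain, and repress transcription together with histone deacetylases. The full-length members Tle1 to Tle4 end in a WD-repeat propeller that docks onto short peptides of the recruiting factor. Aes, named Tle5 in current nomenclature, is a short member without that propeller and can modulate the full-length ones. In lymphocyte development the family is best known for repression by TCF and RUNX factors.

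In the RefSeq gene table of assembly GRCm38.p6, Tle1 lies at chr4:72109945-72200989, Tle3 at chr9:61372326-61418497 and Tle4 at chr19:14448072-14598183. Tle2 lies at chr10:81574739-81592581, and Aes, matched through a synonym, at chr10:81559444-81566371. Aes and Tle2 are neighbours, 8367 bases apart with 1 annotated gene between them that is not protein coding. Which exons the assays target is not stated in the sources used here. The sequences upstream of the 3 commonly detected members are shown because the comparison below turns on Tle1 against Tle3 and Tle4. They come from RefSeq promoter windows of GRCm38.p6 and only as far as they lie outside the annotated gene. They cover chr4:72200990-72201143 (minus strand) for Tle1, chr9:61372116-61372325 (plus strand) for Tle3 and chr19:14598184-14598433 (minus strand) for Tle4. Each is written 5′ to 3′, with capitals for matches to the motifs described next.
Tle1: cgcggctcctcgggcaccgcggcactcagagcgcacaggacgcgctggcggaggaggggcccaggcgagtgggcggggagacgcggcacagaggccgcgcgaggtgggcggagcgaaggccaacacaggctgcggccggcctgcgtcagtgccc
Tle3: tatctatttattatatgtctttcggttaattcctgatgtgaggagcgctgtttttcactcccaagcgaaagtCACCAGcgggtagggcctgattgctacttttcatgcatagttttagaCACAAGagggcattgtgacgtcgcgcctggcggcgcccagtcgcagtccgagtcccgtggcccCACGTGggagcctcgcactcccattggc
Tle4: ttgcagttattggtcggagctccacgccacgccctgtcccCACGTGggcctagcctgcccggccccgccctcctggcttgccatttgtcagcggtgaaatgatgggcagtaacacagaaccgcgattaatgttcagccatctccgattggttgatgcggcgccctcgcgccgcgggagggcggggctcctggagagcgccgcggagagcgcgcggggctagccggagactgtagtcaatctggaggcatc

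The 250 bases before each RefSeq start were searched on both strands for CTTTGA (bound by TCF/LEF factors), TGTGGT (RUNX), the E-box CACGTG and the N-box CACNAG (HES factors), and no matches of different motifs overlapped in the sequences shown. The window of Tle1 held none of the 4. The Tle3 window held an E-box beginning 68 bases before the start and 2 N-boxes farther upstream. The window of the first Tle4 start held an E-box at 210 bases, that of its second start none of the 4 motifs, and the Tle2 window 1 N-box. Among 32851 windows of the same length in the table, 13.8% held CTTTGA, 14.0% TGTGGT, 6.02% CACGTG and 36.7% CACNAG. These matches describe letters in a window, with no binding measured. GC content was 77.2% in the Tle1 window, 52.4% in that of Tle3 and 65.2% in that of the first Tle4 start, against a median of 52.4% over all windows.

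A transcript was called detected in a cell when its Ct was below 24. Ct is the amplification cycle in which the signal rises over the instrument's threshold, and each cycle fewer corresponds to roughly 2 times the template. Cells differed in how many assays they detected. Apart from the family, aLP cells detected 29.7 assays on average in sort 2 and 25.8 in sort 3, ILCP cells 38.6 and 38.7, and LTiP cells 31.7. Of the 24 cells with fewer than 20 other assays, 9 were aLP cells of sort 2, 14 aLP cells of sort 3 and 1 an LTiP cell. The gate genes followed the labels in part. Zbtb16, which encodes PLZF, was detected in 93.5% and 96.7% of ILCP cells while aLP cells had it in 20.4% and 3.2609%, and it was found in 50.0% of LTiP cells, which were sorted as PLZF negative. For Cxcr5 the share was 85.7% in LTiP, 38.7% and 45.6% in ILCP and 25.9% and 7.61% in aLP. Itga4, the α4 chain, was detected in 92.9% to 100% of the cells of each pool, and Il7r in 30.4% to 71.4%.

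The members fell into 3 widely detected and 2 rarely detected genes. Tle3 was detected in 300 of the 312 cells, Tle4 in 230, Tle1 in 49.7% of them, Tle2 in 12 cells and Aes in 5. Ranked by share of cells among the 100 assays, Tle3 stood 6th, Tle4 15th, Tle1 31st, Tle2 88th and Aes 94th. In aLP the order was Tle3 with 96.2% ± 5.4 of cells (SD, n = 2 pools), Tle4 with 73.3% ± 3.7 and Tle1 with 70.5% ± 0.20, followed by Tle2 and Aes, both at 0.543% ± 0.77. Tle4 and Tle1 lay within the spread between pools of each other there. In ILCP the order was Tle3 with 98.3% ± 2.4, Tle4 with 76.6% ± 8.0, Tle1 with 30.5% ± 7.0, Tle2 with 7.11% ± 0.94 and Aes with 2.168% ± 1.5 (SD, n = 2 pools). There Tle4 and Tle1 were far apart. Shares of different assays also reflect how sensitive each assay is, which was not measured.

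**Figure D1:**
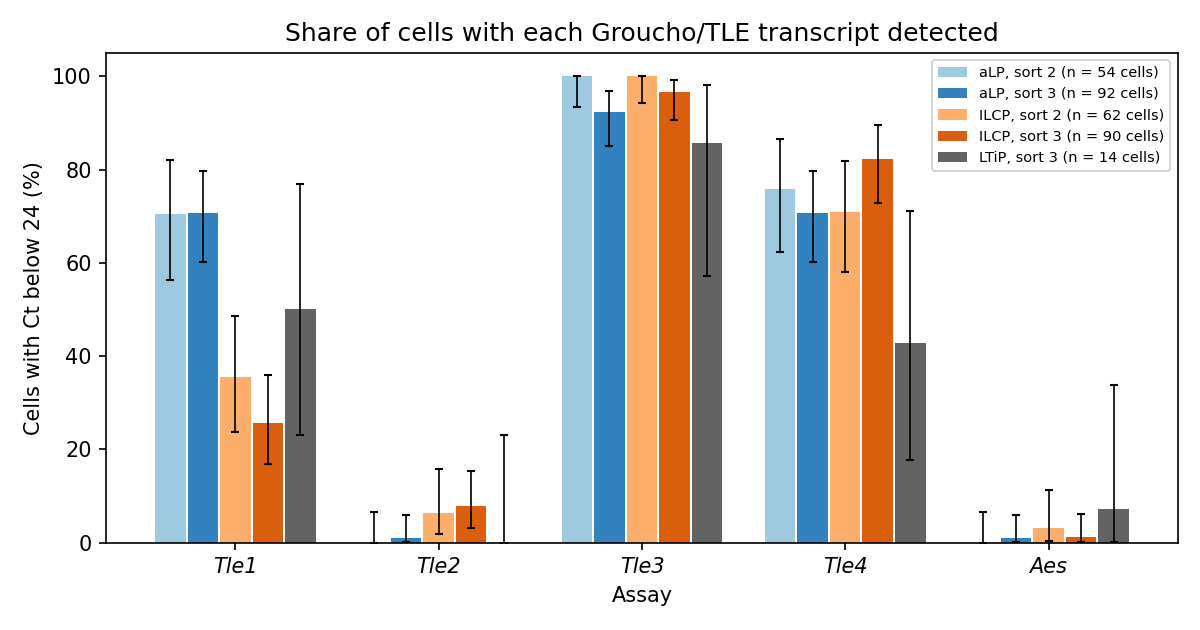
Share of cells with a Ct below 24 (y axis, percent) for the 5 Groucho/TLE assays (x axis) in each pool of cells; bars are shares and whiskers exact 95% Clopper-Pearson intervals, which cover counting error only. Tle1 stands at 70.4% and 70.7% in the aLP pools and at 35.5% and 25.6% in the ILCP pools, while Tle3 is above 85% in each pool.

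Tle1 was the member whose detection changed between the groups. It was detected in 38 of 54 aLP cells of sort 2 (70.4%, 95% Clopper-Pearson interval 56.4% to 82.02%) and in 65 of 92 of sort 3 (70.7%, 60.2% to 79.7%). In ILCP it was detected in 22 of 62 cells of sort 2 (35.5%, 23.7% to 48.7%) and in 23 of 90 of sort 3 (25.6%, 16.9% to 35.8%). Both ILCP pools lay below both aLP pools, and the intervals of the groups did not overlap. These intervals cover counting error only, and how many other assays separate in this way was not counted. The share fell by 34.9 percentage points in sort 2 and by 45.1 in sort 3. In limma's fit on the 4 pools the Tle1 share was lower in ILCP by a difference of -40.0 points ± 4.46 (SE; 95% interval -54.3 to -25.7; Benjamini-Hochberg adjusted p = 0.0292). It was the most negative of the 91 assays tested. Across all assays 14.3% passed the threshold of 0.05 in either direction, and 2.2% in the direction of lower detection in ILCP, which were Tle1 and Irf8. The median difference over all 91 assays was 8.69 points toward ILCP.

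The call on Tle1 did not hold in each alternative fit. With the sort as a block, the difference stayed at -40.0 points and the adjusted p was 0.0966. In that fit 0 of the 91 assays passed, with 24 at an unadjusted p under 0.05. Leaving out the aLP pool of sort 2 gave -40.1 points, that of sort 3 -39.9, the ILCP pool of sort 2 -45.0 and that of sort 3 -35.0. Such fits leave a group with a single pool. In cells with 25 to 45 other assays the difference was -38.5 points (adjusted p = 0.142), in cells with at least 20 it was -41.7 (0.0554), and on the logit scale the adjusted p was 0.0551 (limma). Over all assays 5 of 90, 11 of 91 and 20 of 91 passed in these 3 fits. The difference kept its sign in each of the 18 alternative fits, with adjusted p between 0.0224 and 0.307.

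The shares of Tle3 and Tle4 could not be separated from the spread between pools. Tle3, a full-length co-repressor, was detected in all 54 aLP cells of sort 2, 85 of 92 of sort 3 (92.4%), all 62 ILCP cells of sort 2 and 87 of 90 of sort 3 (96.7%). Its share differed by 2.1377 points (95% interval -10.2 to 14.5; limma, adjusted p = 0.694). Because nearly every cell detected Tle3, its share had little room to rise. Tle4 was present in 41 of 54 (75.9%) and 65 of 92 (70.7%) aLP cells and in 44 of 62 (71.0%) and 74 of 90 (82.2%) ILCP cells. These pools overlapped between groups. The Tle4 share differed by 3.306 points (95% interval -14.1 to 20.7; limma, adjusted p = 0.683), with a difference of -4.96 points in sort 2 and 11.6 points in sort 3. The interval thus allows a change of up to about 20.7 points in Tle4 but not one of the size seen in Tle1.

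**Figure D2:**
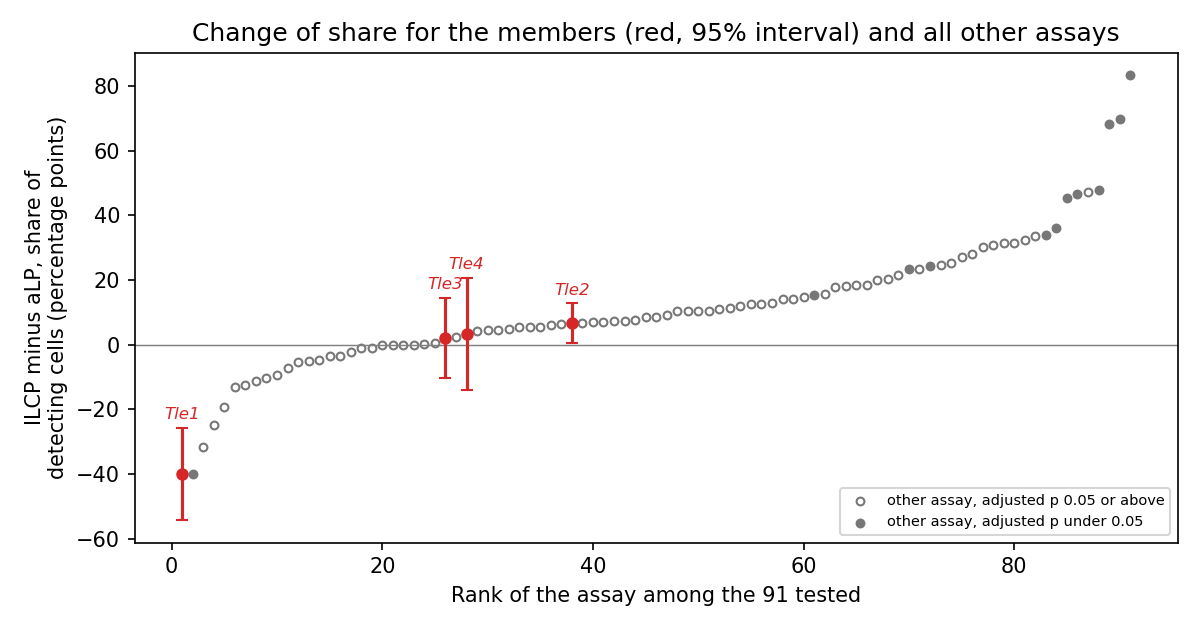
Difference of the share of detecting cells, ILCP minus aLP (y axis, percentage points), for the 91 tested assays in rank order (x axis); red points are family members with limma's 95% interval, filled grey points other assays with an adjusted p under 0.05 and open points the rest. Tle1 is at the low end at -40.0 points, and Tle3, Tle4 and Tle2 lie between 2.1377 and 6.57 points, below the median of 8.69.

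Tle2 and Aes were detected in few cells. Tle2 was found in none of the 54 aLP cells in sort 2 (up to 5.56% is compatible with 0 cells), in 1 of 92 of sort 3 (1.09%), in 4 of 62 ILCP cells of sort 2 (6.45%) and in 7 of 90 of sort 3 (7.78%). The ILCP pools were both higher than the aLP pools, although 11 cells carried the whole ILCP signal. The difference was 6.57 points ± 1.93 (SE; 95% interval 0.38 to 12.8; limma, adjusted p = 0.155). On the logit scale the adjusted p was 0.0393 (limma), where 20 of 91 assays passed against 13 in the main fit. That scale adds a small constant to each count, and the Tle2 value of aLP in sort 2 rests on it. All 12 Tle2 Ct values lay between 19.5 and 21.5, and none was at or above 24. Aes, the short member, behaved differently in that its Ct values sat at the detection limit. Of 9 cells with any Aes Ct, 5 were below 24, at 22.1 to 23.8, and 4 were at or above it. Aes was detected in 0 of 54 and 1 of 92 aLP cells, 2 of 62 and 1 of 90 ILCP cells and 1 of 14 LTiP cells. It did not reach 5% of the cells of any aLP or ILCP pool and was not tested.

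Whether Tle1 changed differently from the other members was tested as the difference between 2 shares, for each pair of assays. The change of the Tle1 share minus that of the Tle2 share was -46.6 points ± 8.16 (SE; limma, adjusted p = 0.0252 over 4095 pairs). Against Tle3 the difference was -42.1 ± 8.03 (adjusted p = 0.0293), and against Tle4 it was -43.3 ± 10.01 (adjusted p = 0.0473). All 3 pairs with Tle1 passed, and 15.2% of the 4095 pairs did; pairs share assays and are not independent. The pairs of Tle2, Tle3 and Tle4 among themselves differed by -1.17 to 4.43 points, with adjusted p from 0.739 to 0.940 and intervals reaching from -23.2 to 24.7 points. When the sort was added as a block, none of the Tle1 pairs passed (adjusted p = 0.0555, 0.0669 and 0.0793). In cells with 25 to 45 other assays the pair with Tle2 passed (0.0456), and those with Tle3 (-37.6 points, 0.0587) and Tle4 (-30.1 points, 0.117) did not.

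Among cells that detected a member, amounts were compared as mean Ct, where a lower Ct means more cDNA. The aLP pools had a mean Tle1 Ct of 18.2 and 19.2, the ILCP pools of 18.97 and 19.9, and LTiP of 19.7. Sort 3 was higher than sort 2 in both groups, and the groups overlapped across sorts, while within each sort ILCP had the higher Ct. The Tle1 level in detecting cells, counted as 24 minus Ct, differed by -0.75 cycles in sort 2 and -0.70 in sort 3, and by -0.73 in the fit (95% interval -1.81 to 0.36; limma, adjusted p = 0.528). For Tle3 the mean Ct was 16.8 and 17.4 in aLP, 16.02 and 16.1 in ILCP and 16.96 in LTiP. Both ILCP pools thus had lower Tle3 Ct than both aLP pools, by 0.78 cycles in sort 2 and 1.30 in sort 3. The level difference was 1.04 cycles ± 0.39 (SE; 95% interval 0.17 to 1.91), with an unadjusted p of 0.0238 and an adjusted p of 0.218 in limma's fit, so that it did not pass. After scaling of each cell to Actb, Gapdh and Hprt the Tle3 difference was 0.47 cycles (adjusted p = 0.974), and in cells with 25 to 45 other assays 0.49 (0.984). Mean Gapdh Ct was 13.7 and 14.8 in aLP and 13.398 and 14.1 in ILCP, and mean Hprt Ct 16.9 and 17.6 against 16.2 and 16.3, so that both housekeeping transcripts had lower Ct in ILCP in each sort as well. Mean Actb Ct was 13.3 and 12.6 in aLP and 12.3 and 12.7 in ILCP, lower in ILCP in sort 2 only. The part of these differences in the Tle3 value was not tested. The mean Tle4 Ct was 18.4 and 19.1 in aLP, 18.6 and 18.9 in ILCP and 19.7 in LTiP, a difference of 0.06 cycles (95% interval -0.85 to 0.97; adjusted p = 0.995). No member passed in this comparison, as was the case for all assays: 0% of the 55 tested passed in limma's fit, with 10 at an unadjusted p under 0.05.

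**Figure D3:**
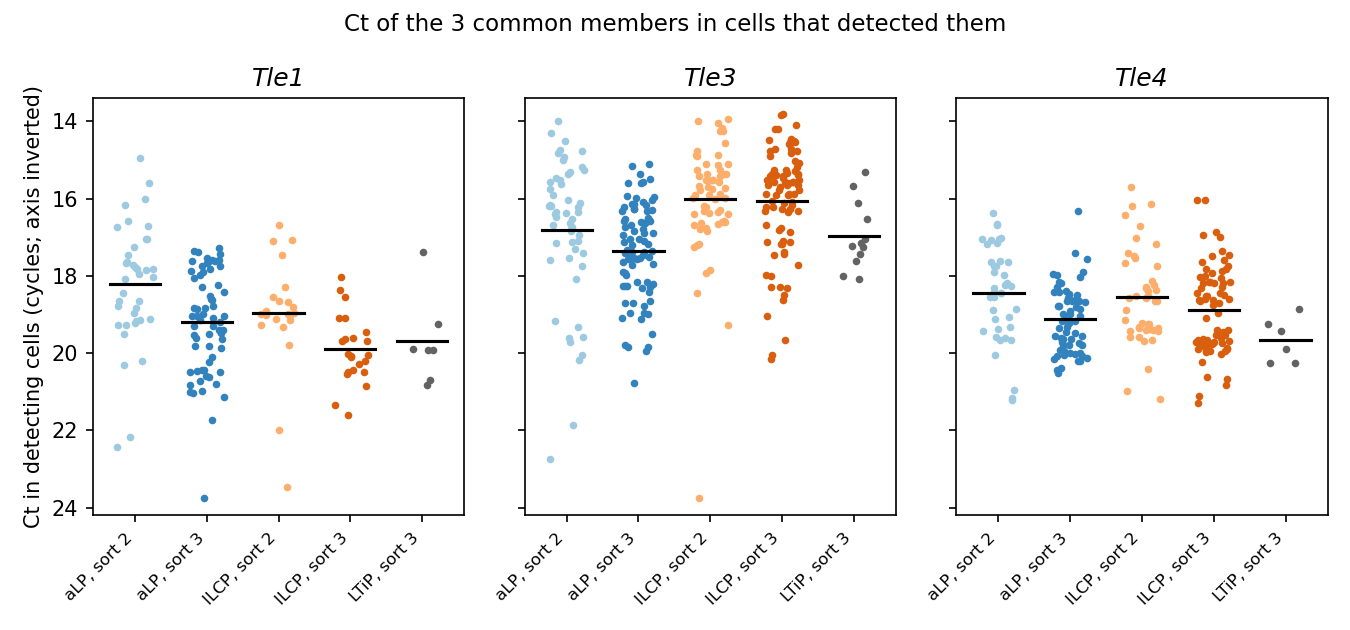
Ct (y axis, cycles, inverted so that more cDNA is up) of Tle1, Tle3 and Tle4 in single cells that detected them, by pool (x axis); points are cells and black lines pool means. Tle3 means are 16.8 and 17.4 in aLP and 16.02 and 16.1 in ILCP, and the Tle1 and Tle4 means of the 2 groups overlap.

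The level over all cells, with undetected cells at 0, combines share and amount. For Tle1 the aLP pools stood at 4.07 and 3.39 cycles and the ILCP pools at 1.79 and 1.05, a difference of -2.32 ± 0.42 (SE; 95% interval -3.51 to -1.12; limma, adjusted p = 0.0685). The pools of the 2 groups did not overlap, which was not counted for other assays, and the difference did not pass. Of all assays 6.59% passed here, and no family member was among them. The Tle1 level passed in 6 of 18 alternative limma fits, among them limits of Ct 26 (-3.15 cycles, adjusted p = 0.0459) and 28 (-4.01 cycles, 0.0366) and scaling of each cell to Actb, Gapdh and Hprt (-2.50 cycles, 0.0321). Over all assays 12 of 91, 11 of 92 and 8 of 91 passed in these 3 fits, against 6 of 91 in the main fit. Without the aLP pool of sort 3, which leaves aLP with 1 pool, the Tle1 difference was -2.66 cycles. For Tle3 the level was 7.20 and 6.14 cycles in aLP and 7.98 and 7.68 in ILCP, a difference of 1.16 ± 0.45 (SE; adjusted p = 0.191). For Tle4 it was 4.22 and 3.444 against 3.86 and 4.204 (0.20 cycles; adjusted p = 0.672), and for Tle2 0 and 0.0456 against 0.255 and 0.278 (0.24 cycles; adjusted p = 0.498).

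Because ILCP cells detected more assays than aLP cells, shares were also set side by side in cells with similar numbers of other detected assays. Among cells with 30 to 39 other assays, Tle1 was detected in 25 of 30 (83.3%) and 13 of 25 (52%) aLP cells of sorts 2 and 3, and in 11 of 28 (39.3%) and 11 of 49 (22.4%) ILCP cells. The share in this bin was thus lower in ILCP in both sorts, and the intervals of the 2 groups overlapped in sort 3 (31.3% to 72.2% against 11.8% to 36.6%). Like numbers of other assays do not mean like cDNA content, since 68 of the 91 tested assays had a higher share in ILCP. With both sorts together these were 69.1% (38 of 55) and 28.6% (22 of 77). Among cells with 20 to 29 other assays the shares were 73.4% (47 of 64) in aLP and 58.3% (7 of 12) in ILCP, whose intervals overlapped (60.9% to 83.7% and 27.7% to 84.8%). ILCP cells with 40 or more other assays detected Tle1 in 25.4% (16 of 63), and only 4 aLP cells were that rich. Within aLP the sorts ran in opposite ways. In sort 2, the 16 cells without Tle1 had a median of 22.5 other assays and a mean housekeeping Ct of 16.8, against 34 and 13.7 in the 38 cells with it. In sort 3 the cells without Tle1 had the higher median, 29 against 24. Tle4 in cells with 30 to 39 other assays was detected in 81.8% (45 of 55) of aLP and 77.9% (60 of 77) of ILCP cells.

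**Figure D4:**
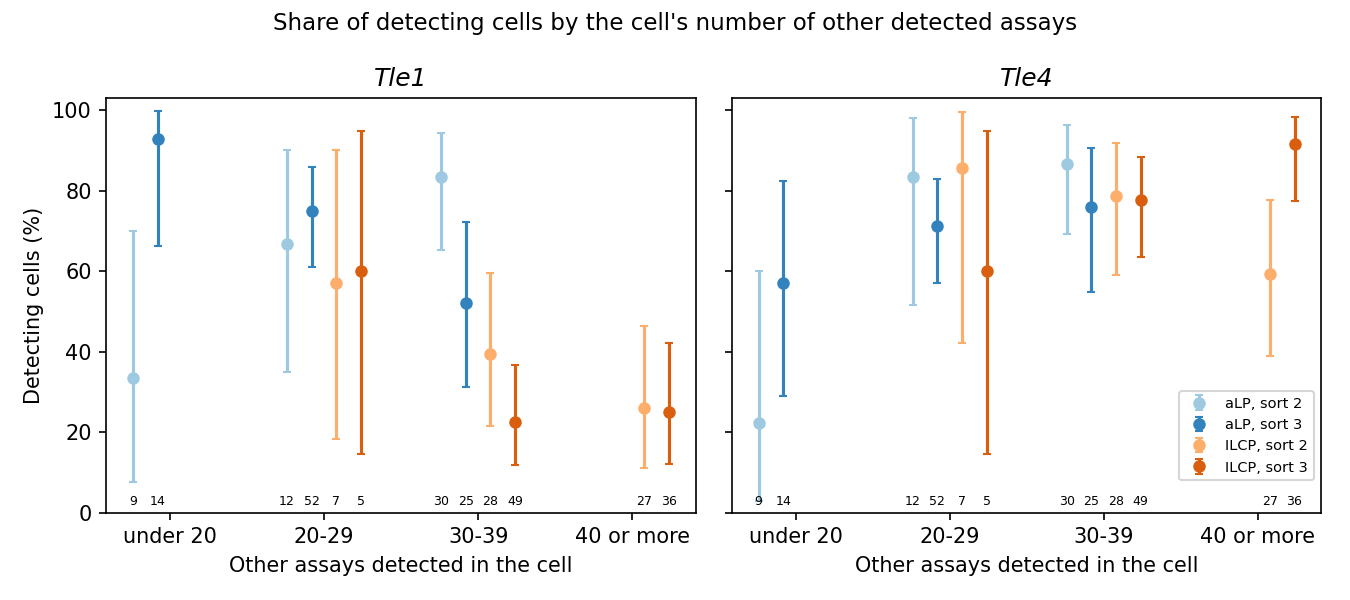
Share of cells detecting Tle1 (left) and Tle4 (right; y axes, percent) by the number of other assays detected in the cell (x axis, 4 bins) for the aLP and ILCP pools; points are shares, whiskers 95% Clopper-Pearson intervals, the small numbers are cells, and bins with fewer than 5 cells are left out. At 30 to 39 other assays Tle1 is at 83.3% and 52% in aLP and at 39.3% and 22.4% in ILCP.

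Markers of other lineages were read beside the Tle1 difference. Irf8, a regulator of dendritic and monocytic development, was the other assay called lower in ILCP, at 74.1% and 79.3% of aLP cells and 40.3% and 33.3% of ILCP cells, and it was the 1 of 5 listed myeloid and dendritic markers on the panel. Of 5 B lineage markers 3 were on the panel, and a cell detected on average 0.204 and 0.152 of them in aLP, 0.0484 and 0.0222 in ILCP and 0.143 in LTiP. Bcl11a made up most of this sum, at 20.4% and 13.04% of aLP cells against 4.84% and 2.22% of ILCP cells. The defining B lineage genes Pax5 and Ebf1 were each at 0 in ILCP, in LTiP and in the first aLP pool, and at 1.09% in the aLP pool of sort 3. Of 4 T lineage markers 1 was on the panel, Bcl11b, which was at 0 in both aLP pools and in LTiP and at 35.5% and 32.2% in ILCP. Itga2b, the 1 of 5 erythroid, megakaryocyte and mast cell markers measured, was at 1.85% and 1.09% in aLP, 22.6% and 34.4% in ILCP and 0 in LTiP. Of 7 LTi markers 6 were on the panel, with 0.574 and 0.380 per cell in aLP, 0.984 and 0.456 in ILCP and 2.64 in LTiP. The part of these markers in the Tle1 difference was not tested.

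LTiP cells were compared within sort 3 by shares and counting intervals, since their 14 cells form a single pool. Of the 14 LTiP cells 7 had Tle1 (50.0%, interval 23.0% to 76.96%), between 70.7% in aLP and 25.6% in ILCP of the same sort. The LTiP interval overlapped those of both other groups. Tle4 was present in 6 LTiP cells (42.9%, 17.7% to 71.1%), against 70.7% (60.2% to 79.7%) in aLP and 82.2% (72.7% to 89.5%) in ILCP. The difference of -39.4 points between LTiP and ILCP was the only one of a member whose intervals did not overlap. Intervals were compared for the members only, so how many other assays would differ likewise is not known here. Other assays averaged 31.7 per LTiP cell and 38.7 per ILCP cell of sort 3. The part of this in the Tle4 difference was not tested. Tle3 was present in 12 LTiP cells (85.7%, 57.2% to 98.2%) and Tle2 in none, which allows up to 21.4%.

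The family members were next read together in each cell. The most frequent combination in aLP was Tle1 with Tle3 and Tle4, in 33 of 54 cells of sort 2 (61.1%) and 40 of 92 of sort 3 (43.5%). In ILCP this combination was found in 16 of 62 (25.8%) and 19 of 90 cells (21.1%). It was thus less frequent in both ILCP pools than in either aLP pool, at 23.5% ± 3.3 against 52.3% ± 12 (SD, n = 2 pools). The most frequent combination in ILCP was Tle3 with Tle4, in 23 of 62 (37.1%) and 45 of 90 cells (50.0%), against 8 of 54 (14.8%) and 19 of 92 (20.7%) in aLP. The 2 combinations differ only in Tle1, so their differences between the groups are not independent of the Tle1 share given above. Tle3 as the only member was found in 8 of 54 and 6 of 92 aLP cells and in 11 of 62 and 14 of 90 ILCP cells. A cell detected 2.41 ± 0.074 members on average in aLP and 2.1473 ± 0.020 in ILCP (SD, n = 2 pools), and 1.86 in LTiP. No cell detected all 5, and the only cell without any was an LTiP cell. Of the 14 LTiP cells 4 held Tle3 only, 3 Tle1 with Tle3, and 2 each Tle3 with Tle4 and all 3 of Tle1, Tle3 and Tle4.

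**Figure D5:**
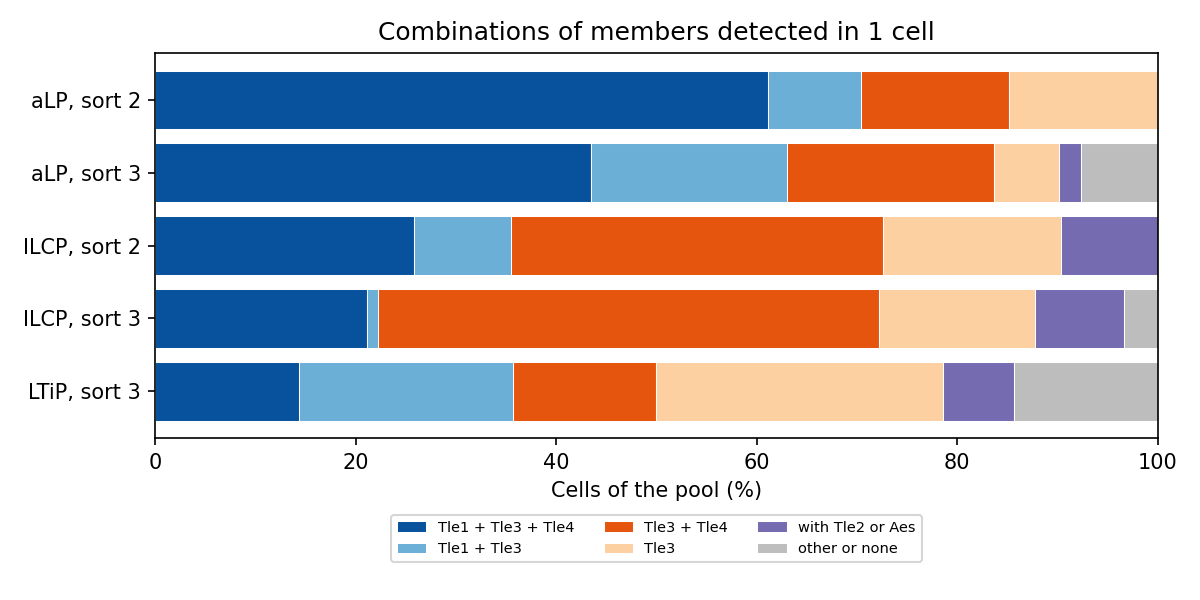
Share of the cells of each pool (x axis, percent; 1 bar per pool) by the combination of family members detected in the same cell; cells with Tle2 or Aes are 1 class, and the remaining combinations and cells with none another. Tle1 with Tle3 and Tle4 covers 61.1% and 43.5% of the aLP pools and 25.8% and 21.1% of the ILCP pools, and Tle3 with Tle4 covers 14.8% and 20.7% against 37.1% and 50.0%.

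The 2 members with intermediate shares, Tle1 and Tle4, did not replace each other from cell to cell. In aLP of sort 2, 33 cells had both where independent detection would give 28.9, and in aLP of sort 3, 44 had both against 45.9. In ILCP 16 had both against 15.6 in sort 2 and 22 against 18.9 in sort 3, and in LTiP 4 against 3. The phi coefficient, the correlation of 2 yes-or-no readouts over the cells of a pool, was 0.393 (54 cells), -0.101 (92), 0.0287 (62), 0.206 (90) and 0.289 (14). With the number of other assays held constant the values were 0.248, -0.0145, -0.0121, 0.235 and 0.230. The pools thus ranged from no relation to a weak positive one, and none showed marked avoidance. In ILCP of sort 3, Tle4 was detected in 22 of 23 cells with Tle1 (95.7%) and in 52 of 67 without it (77.6%). Tle3 was present in most cells whether or not they had Tle1. In aLP it was found in 16 of 16 and 26 of 27 cells without Tle1, and in 38 of 38 and 59 of 65 with it. In ILCP it was found in 40 of 40 and 66 of 67 cells without Tle1, and in 22 of 22 and 21 of 23 with it.

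The rare members were found in cells that also had Tle3, which nearly every cell had. All 11 ILCP cells with Tle2 had Tle3, and 9 of the 12 Tle2 cells had Tle3 and Tle4. These counts lay near those of independent detection. For Tle2 with Tle3 in ILCP they were 4 against 4 in sort 2 and 7 against 6.77 in sort 3. For Tle2 with Tle4 they were 3 against 2.84 and 6 against 5.76. No ILCP cell had both Tle2 and Tle1, where 1.42 cells in sort 2 and 1.79 in sort 3 would be given by independent detection. At such low expected numbers a count of 0 cannot be told apart from independence at this depth. All 5 Aes cells had Tle3 and Tle4, and 2 of them had Tle1 as well.

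Among cells with both transcripts, the Ct values of Tle3 and Tle4 were weakly related in aLP and close to unrelated in ILCP. Spearman's rho between their Ct was 0.363 (41 aLP cells of sort 2), 0.176 (60 of sort 3), -0.0183 (44 ILCP cells of sort 2) and 0.0746 (71 of sort 3). After the mean housekeeping Ct of the cell was subtracted from both, the values were 0.413, 0.316, 0.270 and 0.463, although both then share the subtracted term. For Tle1 and Tle4 rho on the Ct ran from -0.211 to 0.491 without a common sign over pools, and for Tle1 and Tle3 from -0.261 to 0.0456. After the same subtraction they ran from -0.159 to 0.629 for Tle1 and Tle4 and from -0.0805 to 0.291 for Tle1 and Tle3. These are descriptions over cells that share their pool and preparation.

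The other assays whose detection was most like that of a member were taken by mean phi over the 4 aLP and ILCP pools, among 31 assays found in 10% to 90% of the cells of each pool. For Tle1, Irf8 had a mean phi of 0.197 and was above 0 in all 4 pools; in ILCP it was detected in 50.0% and 52.2% of cells with Tle1 and in 35.0% and 26.9% of cells without. The Irf8 share was thus higher in cells with Tle1 than without it within ILCP too, the group in which both transcripts were lower. Irf8 was picked for its phi in these same pools, so this follows in part from the choice. Of the 31 assays, 20 had a mean phi above 0 with Tle1. In LTiP, which the choice did not use, Irf8 ran the other way, in 3 of 7 cells with Tle1 and 5 of 7 without.

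Il18r1 and Ets1 had the lowest mean phi with Tle1, a choice made after their values were seen. The Il18r1 gene encodes a chain of the interleukin-18 receptor. Its mean phi was -0.295, and it was detected in 27.3% and 17.4% of ILCP cells with Tle1 against 80% and 35.8% of those without. In aLP these shares were 10.5% and 6.15% against 31.2% and 22.2%. For Ets1, a transcription factor of lymphoid cells, mean phi was -0.288, with 59.1% and 47.8% of ILCP cells with Tle1 against 87.5% and 85.1% without it. Among aLP cells Ets1 was detected in 23.7% and 23.1% with Tle1 and in 43.8% and 48.1% without. The shares of both genes were thus lower in cells with Tle1 than in cells without it in all 4 pools. Holding the number of other assays constant left the means at -0.296 for Il18r1 and -0.276 for Ets1, but the aLP pools moved in opposite ways. In aLP of sort 3, Il18r1 went from -0.235 to -0.0795 and Ets1 from -0.248 to -0.126. In aLP of sort 2 they went from -0.254 to -0.454 and from -0.201 to -0.316. The ILCP pools changed less.

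For Tle4 the most alike assays were Sox4 and Tet2, picked by the phi values given here. Of the 31 assays compared, 22 had a mean phi above 0 with Tle4. Sox4, an HMG-box transcription factor of lymphoid progenitors, had a phi of 0.359, 0.320, 0.321 and 0.359 in the 4 pools, a mean of 0.340. In ILCP it was detected in 68.2% and 93.2% of cells with Tle4 and in 33.3% and 62.5% of cells without. With the number of other assays held constant the mean was 0.242, and in aLP of sort 2, where cells without Tle4 had a median of 18 other assays against 34, it was 0.0601. Tet2, an enzyme of DNA demethylation, had a mean phi of 0.254 with Tle4. The same measure could not be had for Tle2, Tle3 and Aes, which in at least 1 pool were found in no cell or in all cells.

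Of 17 factors listed as recruiting Groucho/TLE proteins, 9 were on the panel and 7 passed the filter. Detection of 1 of the 7 rose in ILCP and that of none fell, where 12.1% of all assays rose. All 7 differences were positive, as were 68 of the 91 over the whole panel, with a median of 14.1 points against 8.69 over all assays. The one that rose was Tcf7, which encodes the T cell factor TCF-1: its share was 31.5% and 17.4% in aLP, 88.7% and 96.7% in ILCP and 85.7% in LTiP (68.3 points ± 6.89 SE; limma, adjusted p = 0.0263). Hes1, induced by Notch, was found in 1.85% and 9.78% of aLP cells, 43.5% and 62.2% of ILCP cells and no LTiP cell (47.1 points ± 8.53 SE; adjusted p = 0.0692). Runx3 was at 87.0% and 68.5% in aLP and 90.3% and 93.3% in ILCP (adjusted p = 0.302), and Runx1 at 46.3% and 21.7% against 40.3% and 36.7% (adjusted p = 0.753). Tbx21, which encodes T-bet, was at 0% and 7.61% against 32.3% and 15.6% (adjusted p = 0.213). Within aLP of sort 3, Tcf7 was detected in 5 of 65 cells with Tle1 (7.69%) and in 11 of 27 without it (40.7%), whereas in sort 2 these were 11 of 38 (28.9%) and 6 of 16 (37.5%). In ILCP of sort 2, Tcf7 was detected in 17 of 22 cells with Tle1 (77.3%) and in 38 of 40 without it (95%). In ILCP of sort 3 these were 22 of 23 (95.7%) and 65 of 67 (97.0%), and in LTiP 5 of 7 and 7 of 7. The Tcf7 share was thus lower in cells with Tle1 in each pool, by little in ILCP of sort 3. These shares within pools were not tested.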

How the data were processed

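Single cells were measured by multiplex quantitative RT-PCR on a microfluidic Biomark HD system. Per the labels' protocols, cDNA was preamplified for 22 cycles and assayed with TaqMan or Solaris reagents, while the label field names SYBR Green. The chemistry of each assay is not stated in the sources used here. Per the file header, the authors deposited Ct values that were not normalized. Missing values were taken as not detected. The series text speaks of 339 sorted cells and 299 after filtering. The table holds 313, of which 312 had at least 5 detected assays and among them 1 or more of the housekeeping genes Actb, Gapdh, Hprt and Tbp.

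Groups came from the labels. Each cell name carries the number 2 or 3, taken as the sort because the series text speaks of 2 sorts, although no label defines it. Detection meant a Ct below 24, and the level was 24 minus Ct, or 0. Pool values of the assays reaching 5% of the cells of an aLP or ILCP pool (91 of 100; for the level in detecting cells, 55 with at least 5 such cells in each of the 4 pools) were fitted with limma 3.58.1 in R 4.3.3 (lmFit and eBayes, group only), with Benjamini-Hochberg adjustment over all tested assays or pairs and a threshold of 0.05. The aLP and ILCP pools of 1 sort did not deviate together (correlation -0.0799 for shares, -0.0468 for levels), and a block for the sort was tried as an alternative. Shares carry 95% Clopper-Pearson intervals, and a share of 0 the upper limit of 3 cells. Intervals and limits cover counting error only. Other alternatives varied the detection limit, per-cell scaling, and the filters on cells and assays.

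The members, the gene lists and the tests were chosen with earlier results of these data known. The named genes were all members, the listed recruiting factors found in at least 10% of the cells of 1 pool, and the 2 assays most alike to each member, of which 1 is not reported here. Scripts were tested on simulated data. Python 3.11.15, pandas 2.3.3, scipy 1.17.1 and matplotlib 3.10.9 were used.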

Additional observations from a re-analysis of the deposited data

Results flagged for a closer look

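For Tle4 the difference between ILCP and aLP had opposite signs in the 2 sorts, in all 3 readouts. The share of detecting cells differed by -4.96 percentage points in sort 2 and by 11.6 in sort 3. The level over all cells differed by -0.35 cycles in sort 2 and 0.76 in sort 3, and the level in detecting cells by -0.11 and 0.24 cycles. Within ILCP of sort 2, Tle4 was detected in 41 of 52 cells numbered 1 to 96 (78.8%) and in 3 of 10 with higher numbers, whereas all aLP cells of that sort were numbered 97 or higher. The labels do not say what the numbers stand for. Without those 10 cells the Tle4 share differed by 7.25 points between the groups (limma, adjusted p = 0.216), an alternative added after the data were seen. The level of Aes over all cells differed by 0.0353 cycles in sort 2 and by -0.00538 in sort 3, from 5 detecting cells in all. Each sort holds 1 pool per group, and these differences between sorts were not tested.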

How the results depend on the processing

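The 323 recomputed values under alternatives kept direction and side of the threshold, or moved by less than the stated spread, in 258 cases; 7 newly passed, 16 no longer passed, 22 changed sign and 20 counts or untested values moved. The call on the Tle1 share ended with the sort as a block (-40.0 points, adjusted p = 0.0966), in cells with 25 to 45 other assays (-38.5 points), in cells with at least 20 (-41.7, an alternative added after the data were seen), in cells of the second range of 96 cell numbers (-32.2 points) and on the logit scale (-2.42), and without single pools (-45.0 to -35.0 points); the members called were then 0, except on the logit scale, where Tle2 passed (2.76). It held at detection limits of 22, 26 and 28, after both per-cell scalings, and without the filters on cells or assays. A fit without 1 pool assumes that the lone pool varies like the others. The Tle1 level over all cells passed, as the 1 member called, at limits of 26 (-3.15) and 28 (-4.01), after housekeeping scaling (-2.50), with assays in at least 20% of a pool (-2.32), without the 10 late-numbered ILCP cells of sort 2 (-2.43, added after the data were seen), and without the aLP pool of sort 3; without single pools it ran from -2.68 to -1.95 and the members called from 0 to 1. All 3 member pairs lost their call with the sort as a block (0 called), and 1 remained with levels in place of shares (-2.56 and -2.52 for Tle1 minus Tle2 and minus Tle4 no longer passed) and 1 in cells with 25 to 45 other assays. With levels, 456 of all 4095 pairs passed.

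Differences near 0 changed sign. For Tle4 this was the level over all cells after housekeeping scaling (-0.0738), in cells with 25 to 45 (-0.57) or at least 20 other assays (-0.25), in cells of the second number range (-1.24) and without aLP sort 3 (-0.19; up to 0.59 without other pools). Its share changed sign at a limit of 28 and after median scaling (-0.0153 each), after housekeeping scaling (-0.571), in cells with 25 to 45 (-8.33) or at least 20 other assays (-3.28), in cells of the second number range (-22.6) and without ILCP sort 3 (-2.32; up to 8.93). Its level in detecting cells did so after housekeeping scaling (-0.0712), in cells with 25 to 45 (-0.13) or at least 20 other assays (-0.0497), and without aLP sort 3 (-0.28) or ILCP sort 2 (-0.10; up to 0.40). The Tle3 share was -0.875 in cells with 25 to 45 other assays and -1.67 without aLP sort 3 (up to 5.94 without other pools). Tle2 minus Tle3 was -0.92 and Tle3 minus Tle4 0.96 on levels, and the latter 7.46 in cells with 25 to 45 other assays. None of these passed (limma). Members per cell, ILCP minus aLP, moved from -0.264 to -0.341 at a limit of 28. The mean phi of Tle1 and Tle4 (0.132) moved by less than its SD of 0.215. A limma fit over 5 pools, in which the single LTiP pool lends no spread of its own, left the LTiP differences of Tle1 and Tle4 within the counting interval of the LTiP share. The Tle3 level in detecting cells ran from 0.47 to 1.32 over its alternatives and passed in none. The causes were not tested. Over all assays the number passing for shares ran from 0 to 20 of those tested, against 13, for levels over all cells from 0 to 15, against 6, and for levels in detecting cells from 0 to 5, against 0; unadjusted p under 0.05 numbered 19 to 35 for shares. Cell number limits the values of Tle2 and Aes, which rest on 12 and 5 cells, and 14 cells limit LTiP.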

Other observations

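Some values of the members were not part of the comparisons above. In sort 3, where the numbers of aLP and ILCP cells fall into 3 ranges of 96, Tle1 was detected in 79.2%, 62.9% and 72.7% of aLP cells in the first, middle and last range, and in 36.8%, 18.8% and 25.6% of ILCP cells. Each ILCP range lay below each aLP range, but the ranges are parts of 1 pool per group and not replicates. Intervals overlapped between the middle aLP range (44.9% to 78.5%) and the first ILCP range (16.3% to 61.6%). Other assays were not compared in this way. Tle4 was detected in 75%, 74.3% and 63.6% of these aLP cells and in 94.7%, 75% and 82.1% of these ILCP cells.

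Batf, a transcription factor of the AP-1 family, had the lowest mean phi with Tle4, -0.157, a choice made after its values were seen. In ILCP it was detected in 6.82% and 6.76% of cells with Tle4 and in 33.3% (6 of 18) and 25% (4 of 16) of cells without. In aLP the sorts differed in sign, with 22.0% against 15.4% in sort 2 and 15.4% against 25.9% in sort 3. Runx1, which encodes a DNA-binding factor known to recruit Groucho/TLE proteins, was detected in 56.1% of the aLP cells of sort 2 with Tle4 and 15.4% of those without, and in 50.0% and 16.7% of the ILCP cells of sort 2. In sort 3 the shares were 20% against 25.9% in aLP and 36.5% against 37.5% in ILCP, so the relation was seen in 1 sort. The aLP cells of sort 2 without Tle4 had a median of 18 other assays, against 34 in those with it. Their mean housekeeping Ct was 17.1 against 13.8. In ILCP of sort 2 the medians were 41.5 without Tle4 and 38 with it. These values were not tested.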
